A study of Mus musculus with 66 samples.

Results

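The genes described here encode the epithelial anchor to the basement membrane: the integrin chains Itga6, Itgb4 and Itga3, the transmembrane collagen Col17a1, the plakin Dst and the laminin chains Lama3 and Lamb3. These 7 genes were chosen by symbol and not by a cut on their values, though earlier results of these data were known. All 7 were found among the 30452 genes of the deposited table, where 58 transcripts carried them, and TPM was summed per gene. TPM is a transcript's share of the library, scaled to a fixed sum and corrected for transcript length, so levels of different genes can be set side by side.

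The 66 samples were pieces of distal gut mucosa from 19 wild-type C57Bl/6 mice, bought at 6 weeks of age. Injury was by DSS (dextran sulfate sodium), which damages colonic epithelium, at 3% for 6 d from experimental day 0. Tissue was taken from uninjured mice at day 0 (4 mice) and from DSS-exposed mice at day 3, before the end of the exposure, and at days 6, 9, 14 and 20 (3 mice per day). Each mouse gave a sample of anus, of rectum and of mid-colon. The 9 mice killed at days 9 to 20 also gave squamous neo-epithelium, a tissue that the labels list only after injury. The muscle layer was discarded before RNA isolation. Each section holds epithelium, stroma and leukocytes, so fewer cells of a type and less RNA per cell cannot be told apart.

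Hemidesmosomes rivet basal epithelial cells to the sheet of matrix beneath them. In the complete form found in squamous epithelia, integrin α6β4 and the transmembrane collagen XVII bind laminin-332 outside the cell, and the plakins plectin and the epithelial form of dystonin tie the complex to keratin filaments inside. Simple intestinal epithelium builds a simpler form from α6β4 and plectin, without collagen XVII and epithelial dystonin. Integrin α3, which pairs with β1, binds the same laminin outside hemidesmosomes, and loss of α6β4, collagen XVII or laminin-332 blisters the skin.

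The sequences at which transcripts of Itga6 and of Dst part are shown here because the transcript values below turn on them. Letters are from GENCODE M21 on the plus strand of GRCm38 (mm10). Itga6 lies at chr2:71745616-71858416 on the plus strand. Its transcripts Itga6-201 and Itga6-202 differ in an exon of 130 bases that only Itga6-201 holds, so that different exons encode the end of the cytoplasmic tail. Both have 26 exons, with 4310 and 4156 bases in all, so they also differ elsewhere. The last coding stretch of Itga6-201 lies at chr2:71853534-71853641 and that of Itga6-202 at chr2:71855854-71856015, each with its stop codon in capitals.
Itga6-201: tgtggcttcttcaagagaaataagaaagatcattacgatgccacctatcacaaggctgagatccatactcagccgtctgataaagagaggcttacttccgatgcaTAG
Itga6-202: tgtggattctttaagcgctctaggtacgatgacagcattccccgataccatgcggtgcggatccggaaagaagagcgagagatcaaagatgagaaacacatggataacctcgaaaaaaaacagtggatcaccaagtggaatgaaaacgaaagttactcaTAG
Both stretches code, and the transcripts have 3219 and 3273 coding bases in all.

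Dst lies at chr1:33908225-34308661 on the plus strand and is known to give epithelial, neuronal and muscle forms. Its transcripts Dst-213 (24 exons, 8788 bases) and Dst-215 (84 exons, 16340 bases) start at the same base and share 22 exons, of which the last ends at position 34174795. Dst-213 then ends within 2 large exons of its own, whereas Dst-215 continues through 62 further exons to position 34308404. The lines below give the last 30 shared bases in lower case and the first 120 bases of the next exon in capitals, which is chr1:34177796-34177915 in Dst-213 and chr1:34184016-34184135 in Dst-215.
Dst-213: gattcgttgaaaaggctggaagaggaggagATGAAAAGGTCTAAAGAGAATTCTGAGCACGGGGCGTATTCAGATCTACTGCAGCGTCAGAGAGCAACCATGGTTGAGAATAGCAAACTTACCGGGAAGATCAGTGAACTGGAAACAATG
Dst-215: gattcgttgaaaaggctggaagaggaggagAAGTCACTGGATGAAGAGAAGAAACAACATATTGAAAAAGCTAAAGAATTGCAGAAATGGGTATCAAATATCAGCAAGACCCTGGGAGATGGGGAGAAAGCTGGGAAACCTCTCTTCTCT
The files pair these transcripts with no protein form, so none is named here.

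**Figure D1:**
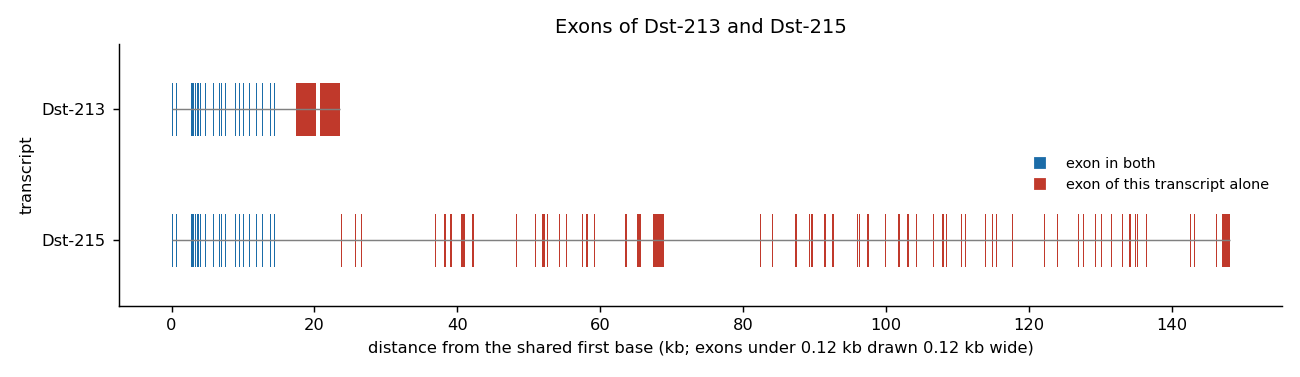
Exons of Dst-213 and Dst-215 along the gene, as distance in kb from their shared first base; blue exons are in both transcripts and red exons in one. The 22 shared exons come first, then 2 large exons end Dst-213 while Dst-215 goes on through 62 exons.

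Col17a1 (chr19:47646344-47692094, minus strand) is the gene with the widest range between sections. The 250 bases before its start in RefSeq (chr19:47692043-47692292, minus strand, GRCm38.p6) are shown for that reason, in lower case because no searched motif was found.
Col17a1 promoter: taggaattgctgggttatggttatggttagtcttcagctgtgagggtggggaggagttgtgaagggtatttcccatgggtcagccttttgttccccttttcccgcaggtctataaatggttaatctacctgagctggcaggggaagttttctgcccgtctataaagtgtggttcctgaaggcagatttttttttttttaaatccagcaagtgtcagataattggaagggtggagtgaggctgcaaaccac
The window was searched on both strands for TGANTCA (AP-1), GGGCGG (GC box), GGAATG (TEAD) and the p53/p63 half-site. Over all 32851 promoters of that table, windows of 250 bases held these motifs in 6.75%, 32.7%, 12.6% and 7.13% of cases. No match says only that these letters are not in this window.

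The labelled tissues were checked against marker genes before the members were read. The summed level of the basal squamous markers Krt5, Krt14, Krt15 and Trp63 was 3990 TPM in uninjured anus, 26.8 in uninjured rectum and 5.03 in mid-colon, and it lay between 6950 and 14090 TPM in the 9 neo-epithelium samples. Colonic mucin Muc2 was at 725.5 TPM in uninjured mid-colon, 594.9 in rectum and 64.1 in anus. Anal sections also held skeletal muscle RNA (4 genes, 832.5 to 9319 TPM in sum over the 19 samples), which was between 0.499 and 8.96 TPM in neo-epithelium. Colonic RNA in neo-epithelium differed between days: Krt8, a simple epithelial keratin, averaged 226.6 TPM at day 9 and 1667 at day 20. The part of these admixtures in the results below was not tested. One library stood apart within its group for members of the list: mid-colon of mouse 4 at day 0 was low in Itgb4 and Itga3, so the comparisons with mid-colon are also given without mouse 4.

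The remaining members lie at the following positions of GRCm38. Itgb4 is at chr11:115974709-116008412 on the plus strand and Itga3 at chr11:95044474-95076801 on the minus strand. Lama3 is at chr18:12333819-12583013 and Lamb3 at chr1:193207699-193343878, both on the plus strand.

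The first comparison set uninjured anus against uninjured rectum, the squamous and the glandular side of the anorectal junction. Of the 7 members, Col17a1 was higher in anus, 5 were lower and Dst was not called. Col17a1 was at 24.0, 61.9, 61.7 and 44.6 TPM in anus of mice 1 to 4 and at 0.640, 0.163, 0.754 and 0.0896 TPM in rectum of the same mice. Every anal value lay above every rectal one, and the log2 difference was 5.06 ± 0.31 (SE, limma, Benjamini-Hochberg adjusted p = 6.99e-07). All genes of the table give the scale for these counts: 25.9% of the genes tested were called higher in anus and 34.4% lower, and the median log2 difference over all genes was -0.15.

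The laminin-binding integrins were lower in anus. Itga6, the α chain of the hemidesmosomal integrin, averaged 112 ± 6.09 TPM in rectum and 62.9 ± 21.04 in anus (SD, n = 4), a log2 difference of -0.89 ± 0.23 (limma adjusted p = 0.00815). Itgb4, its β partner, was at 82.6, 61.4, 58.7 and 47.8 TPM in rectum of mice 1 to 4 and at 11.1, 17.7, 14.8 and 36.15 TPM in anus. The ranges did not overlap, and Itgb4 differed by -1.71 ± 0.31 (adjusted p = 0.00107). Itga3 fell from 33.95 ± 5.95 TPM in rectum to 10.5 ± 4.51 in anus, a log2 difference of -1.68 ± 0.28 (adjusted p = 5.67e-04).

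Both laminin chains among the members were lower in anus as well. Lama3, the chain whose end integrins bind, was at 53.8, 49.0, 47.7 and 45.65 TPM in rectum of mice 1 to 4 and at 11.7, 16.7, 12.0 and 30.1 TPM in anus. The lowest rectal value was above the highest anal value, and the log2 difference was -1.52 ± 0.26 (adjusted p = 6.86e-04). Lamb3 differed by -1.64 ± 0.29 (99.5 ± 14.2 against 33.9 ± 18.2 TPM, adjusted p = 8.31e-04). As mean levels in TPM, Lama3 and Lamb3 stood at 49.0 and 99.5 in rectum, and Lama3 was the lower of the pair in each section at day 0. Mouse 4 had the highest anal value of Itga6, Itgb4, Itga3, Lama3 and Lamb3 at day 0. Anal Krt8 was 548.6 to 957.1 TPM in mice 1 to 3 and 1833 TPM in mouse 4, and the part of glandular RNA in these values was not tested.

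Dst was at 14.9, 39.0, 47.5 and 47.3 TPM in anus of mice 1 to 4 and at 36.5, 32.7, 30.8 and 32.6 TPM in rectum. Anus of mouse 1 lay below the rectal range and the other 3 above it, and the log2 difference of 0.04 ± 0.32 was not called (adjusted p = 0.931). Without mouse 1 it was 0.46 and was called higher in anus (adjusted p = 0.0252), and without mouse 2, 3 or 4 it was -0.04, -0.16 and -0.13. The sum over transcripts hid a change of transcripts, described below.

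**Figure D2:**
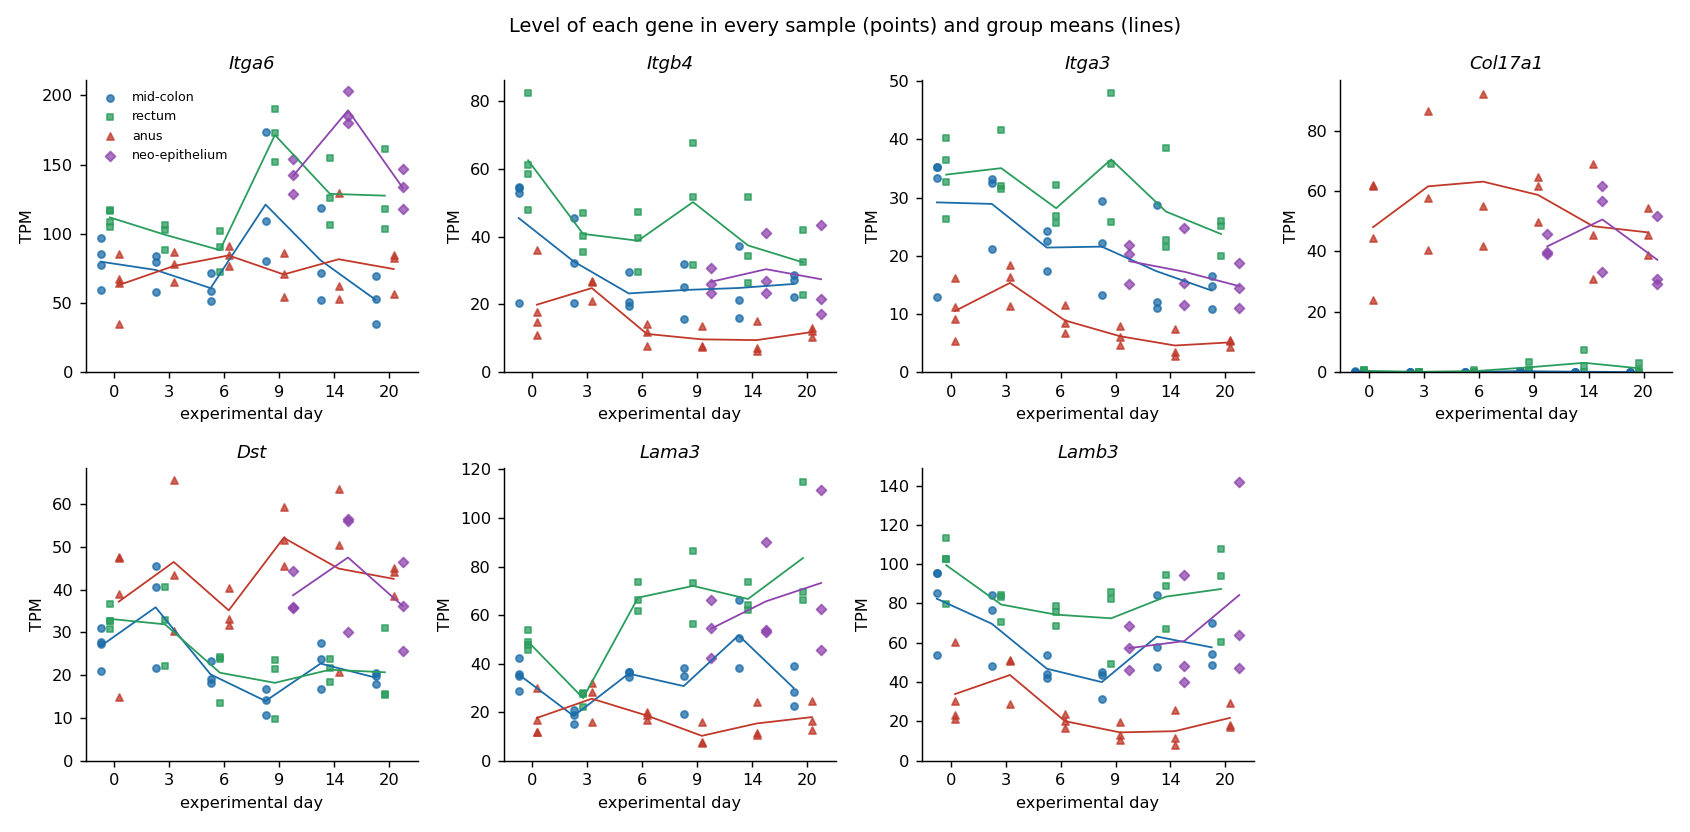
Level (TPM) of the 7 members in every sample by experimental day, with points for samples, lines for group means and colors for sections. Col17a1 was at most 0.375 TPM in mid-colon and 7.3 TPM in rectum, and between 24.0 and 92.3 TPM in anus. At day 0 the group means of the 5 integrin and laminin chains were lowest in anus.

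Between uninjured rectum and mid-colon none of the 6 members tested was called by limma, 3 of them having an unadjusted p under 0.05 (1.79% of all genes were called and 23.3% had such a p), and Col17a1, at 0.412 TPM in rectum and 0.0894 in mid-colon, did not reach the filter of 1 TPM. Itga6 came closest with Lama3: it was at 117, 105, 116.5 and 109 TPM in rectum and at 77.6, 85.6, 97.0 and 59.2 TPM in mid-colon of mice 1 to 4. These ranges did not overlap, but the log2 difference of 0.50 ± 0.14 had an adjusted p of 0.0941 (limma). Lama3 differed by 0.46 ± 0.13 (adjusted p = 0.0885). The remaining log2 differences were 0.53 for Itgb4, 0.30 for Itga3, 0.29 for Lamb3 and 0.31 for Dst, beside a median of 0.21 over all genes (-0.02 with TMM factors, a rescaling of libraries by a trimmed mean of gene ratios). Without mouse 4 none of the 6 was called either (1.37% of all genes), with log2 differences of 0.38 for Itga6, 0.40 for Lama3, 0.30 for Itgb4 and 0.0697 for Itga3.

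Transcript values were estimated by the authors' software from single-end reads of 75 bp and are given as description, without a test. Dst-213 was at 8.08, 24.4, 25.9 and 31.9 TPM in the 4 uninjured anal samples, here in rising order, and between 0.882 and 1.10 TPM in uninjured rectum. Over all days its lowest, median and highest levels were 8.08, 25.9 and 45.8 TPM in the 19 anal samples and 15.05, 21.5 and 38.25 TPM in the 9 neo-epithelium samples. No rectal sample exceeded 1.68 TPM and no mid-colonic sample 1.19 TPM, so the squamous sections were separate from the glandular ones in all 66 samples. In neo-epithelium Dst-213 averaged 24.0 TPM, and the 4 skeletal muscle genes summed to at most 8.96 TPM there. Smooth muscle markers summed to between 137.4 and 377.9 TPM in the same samples. The part of muscle RNA in the Dst-213 levels was not tested.

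As a share of all Dst TPM, Dst-213 took 63.2% on average in anus (47.2% to 77.7%) and 58.1% in neo-epithelium (47.1% to 68.4%). In rectum it took 3.42% (1.60% to 7.36%) and in mid-colon 2.43% (1.38% to 3.65%). At day 0 the other Dst transcripts together were at 14.6 TPM in anus against 32.2 in rectum and 26.2 in mid-colon. Over days 9 to 20 they averaged 16.8 TPM in neo-epithelium and 19.2 in rectum of the same mice, and were lower in neo-epithelium in 6 of 9 mice. Among them Dst-215 was at 6.33 TPM in uninjured rectum, 5.10 in mid-colon and 0.910 in anus, and Dst-204 (32 exons) at 13.0, 11.3 and 5.84 TPM. A single-exon transcript annotated as a retained intron, Dst-219, was at 3.94 TPM in uninjured anus and 0.251 in rectum.

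The balance of the Itga6 tails also differed between sections. Itga6-201 made up 21.96% of Itga6-201 plus Itga6-202 in rectum (9.87% to 32.5%) and 21.5% in mid-colon (11.8% to 38.5%) over 19 samples each. It made up 75.9% in neo-epithelium (54.1% to 90.3%), above every sample of rectum and mid-colon. In anus the share was 54.0% at day 0 (35.5% to 76.3%) and 95.5% over days 9 to 20 (89.4% to 100%), so the uninjured anal samples were lower than those of the later days. Krt8, as a measure of glandular RNA in anus, averaged 979.7 TPM at day 0 and 89.96 over days 9 to 20, and its part in this difference was not tested.

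In absolute level over days 9 to 20, Itga6-201 averaged 43.6 TPM in neo-epithelium, 18.2 in anus and 13.7 in rectum, and was highest in neo-epithelium in all 9 mice. Itga6-202 averaged 13.4, 0.855 and 36.7 TPM on those days. A 3-exon Itga6 transcript with no coding sequence, Itga6-203, held 47.75% to 58.6% of the Itga6 total as means of the sections, so the gene level is for the most part not a level of the coding transcripts. Summed over coding transcripts alone, Itga6 was at 41.1 ± 4.43 TPM in uninjured rectum and 14.35 ± 8.27 in anus.

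Among the other members, Lama3-202 (38 exons) held 84.6% of Lama3 TPM in uninjured mid-colon, 86.65% in rectum, 94.0% in anus and 96.9% in neo-epithelium, and the long Lama3-201 (75 exons) held the rest. Itgb4-202 (38 exons) led Itgb4 in every section with 64.7% to 72.8%. For Itga3 the leading transcript in rectum was Itga3-201 (77.1% at day 0), whereas in uninjured anus Itga3-202 and Itga3-201 held 48.1% and 45.7%. Col17a1-201 made up 62.0% of Col17a1-201 plus Col17a1-202 in anus and 82.3% in neo-epithelium, on average.

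**Figure D3:**
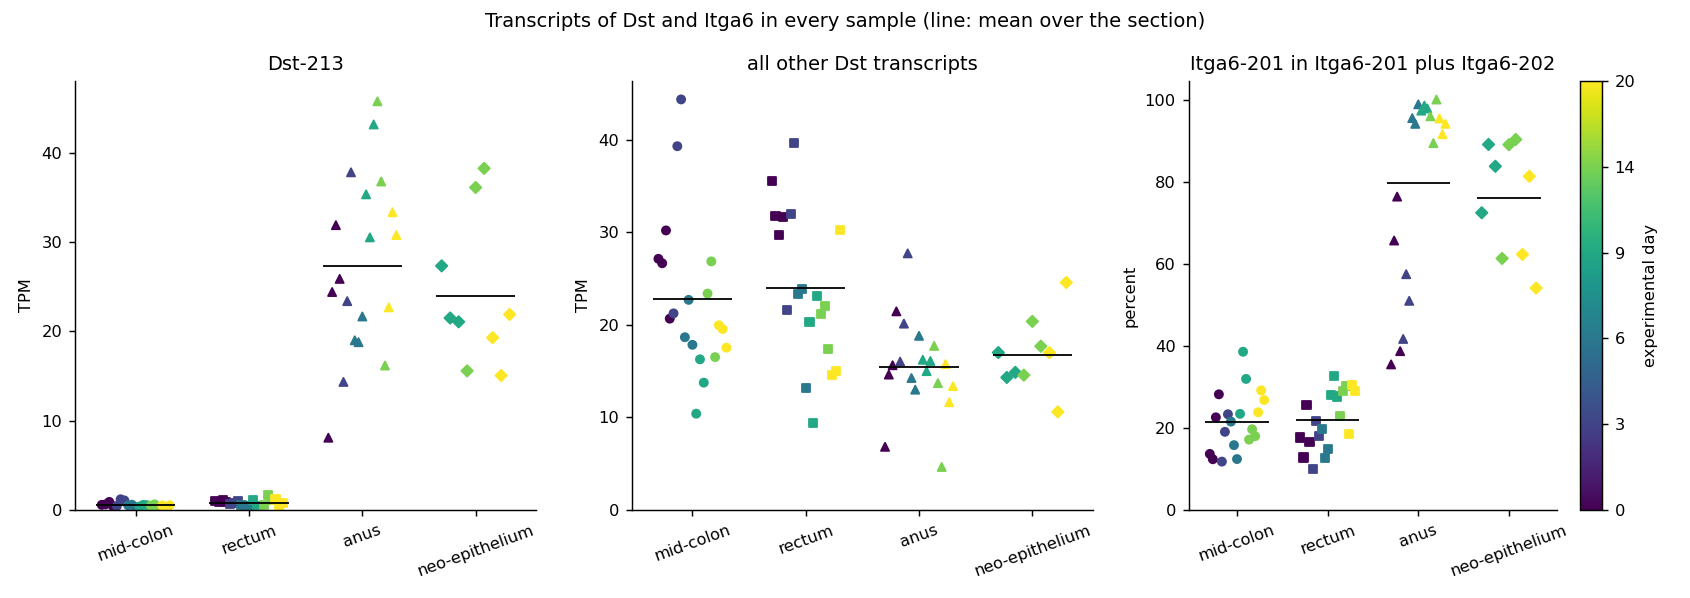
Level (TPM) of Dst-213 and of all other Dst transcripts, and the percent of Itga6-201 in Itga6-201 plus Itga6-202, in every sample; points are colored by day and black lines are section means. Dst-213 was at most 1.68 TPM in the glandular sections and at least 8.08 TPM in the squamous ones.

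In the rectal course after DSS, Lama3 was called on 4 of the 5 days. At day 3, Lama3 was the only member of 6 tested that was called: it was at 27.55, 27.75 and 22.1 TPM in mice 5 to 7, below all 4 uninjured samples (45.65 to 53.8 TPM). The log2 difference was -0.90 ± 0.11 (limma adjusted p = 0.00172), in a comparison where 5.13% of all genes were called lower. By day 6 Lama3 had crossed the day 0 level, at 73.8, 61.65 and 66.04 TPM, a difference of 0.45 ± 0.10 (adjusted p = 0.00821). Lama3 stayed above the uninjured range at day 9 (73.2, 56.3 and 86.5 TPM, 0.53 ± 0.15, adjusted p = 0.0165) and day 14 (61.9, 73.7 and 64.3 TPM, 0.43 ± 0.10, adjusted p = 0.0309). At day 20 its values were 115, 66.1 and 69.3 TPM, again all above day 0, and the difference of 0.71 ± 0.19 was not called (adjusted p = 0.0580). Without mouse 13 the day 9 difference lost its call (adjusted p = 0.0583), as did the day 14 difference without any one of mice 1 to 4, 15 and 16 (0.0599 to 0.0921). Without mouse 19 the day 20 difference was called (adjusted p = 0.0293). In 1 fit over all samples, which pools the spread of all sections, none of the 4 Lama3 calls was made (adjusted p = 0.109 to 0.337).

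Lamb3, the β chain of laminin-332, was called higher on no day: it was at 74.3 ± 5.07 TPM at day 6 against 99.5 ± 14.2, called lower by -0.41 ± 0.13 (adjusted p = 0.0287), and at 72.5, 83.5 and 87.4 TPM on the later days without a call. The day 6 call ended without mouse 1, 2, 3, 8 or 10 (adjusted p = 0.0591 to 0.0840).

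Among the integrins of the rectum, Itga6 moved in both directions. It was called lower at day 6 (102, 90.2 and 72.2 TPM, -0.35 ± 0.12, limma adjusted p = 0.0426) and higher at day 9 (173, 151.5 and 190 TPM, 0.61 ± 0.11, adjusted p = 0.00155). All 3 values of day 9 were above the uninjured range of 105 to 117 TPM. At days 14 and 20 Itga6 averaged 129 and 127.5 TPM and was not called. Itgb4, its partner, never exceeded its uninjured mean of 62.6 TPM as a group: it was called lower at day 6 (39.6, 47.3 and 29.6 TPM, -0.67 ± 0.20, adjusted p = 0.0255) and at day 20 (32.5, 22.7 and 42.1 TPM, -0.94 ± 0.24, adjusted p = 0.0497). Leaving out any 1 of mice 1 to 4, 9 and 10 ended the Itga6 call of day 6 (adjusted p = 0.0614 to 0.106). The Itgb4 call of day 6 ended without mouse 1, 2, 8 or 10 (0.0518 to 0.0883) and that of day 20 without any mouse but mouse 19 (0.0632 to 0.128). Itga3 was not called in the rectum on any day, with group means from 23.7 to 36.6 TPM.

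Dst fell in the rectum. It was called lower at day 6 (23.9, 24.3 and 13.6 TPM, -0.70 ± 0.19, limma adjusted p = 0.0166), at day 9 (21.4, 9.75 and 23.5 TPM, -0.92 ± 0.26, adjusted p = 0.01695) and at day 14 (21.7, 23.7 and 18.45 TPM, -0.62 ± 0.12, adjusted p = 0.0170). All 9 of these values lay under the uninjured range of 30.8 to 36.5 TPM. At day 20 mice 17 to 19 had 15.7, 15.4 and 31.0 TPM, which overlapped day 0, and Dst was not called. The day 14 call ended without mouse 1, 2 or 16 (adjusted p = 0.0544 to 0.0625).

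Counted per day, the rectum had 1 member called higher and 4 lower of 6 tested at day 6, where 11.5% of all genes were called higher and 37.2% lower. At day 9 the count was 2 higher and 1 lower, beside 33.5% higher and 20.0% lower over all genes. At day 14 it was 1 higher and 1 lower (6.31% higher and 9.51% lower over all genes), and at day 20 only Itgb4 was called, lower (4.88% of all genes). At day 6 the median log2 difference over all genes was -0.27. With TMM factors the median was -0.04, Lama3 alone of these 5 calls was left at day 6, and all genes divided into 2334 called higher and 2215 lower in place of 1455 and 4690. For all genes TMM gave 328 higher and 551 lower at day 3 (185 and 633 without it), 3735 and 3851 at day 9 (4404 and 2624) and 1270 and 1234 at day 14 (804 and 1213). In 1 fit over all samples no member was called in rectum at day 3, 6, 14 or 20, and at day 9 Itga6 and Dst were called and Lama3 was not. Leukocyte markers in the same sections summed to 151.7 TPM at day 0 and 6645 at day 9, and their part in these values was not tested.

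Col17a1 could not be tested in the rectum, since too few samples reached 1 TPM, but single samples after injury held more of it than any uninjured one. It was at 3.29, 0.735 and 0.757 TPM at day 9 (mice 11 to 13), 0.0285, 7.30 and 1.90 TPM at day 14 (mice 14 to 16) and 2.98, 0.702 and 0.0943 TPM at day 20 (mice 17 to 19). The basal keratin Krt5 in the same samples was at 130.8, 15.3 and 17.35 TPM, then 0.101, 151.1 and 107.9 TPM, then 70.9, 39.1 and 0.029 TPM. In each of the 3 days the rectal sample with the most Krt5 also had the most Col17a1. The 2 samples with the least Krt5, of mice 14 and 19, had the least Col17a1.

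**Figure D4:**
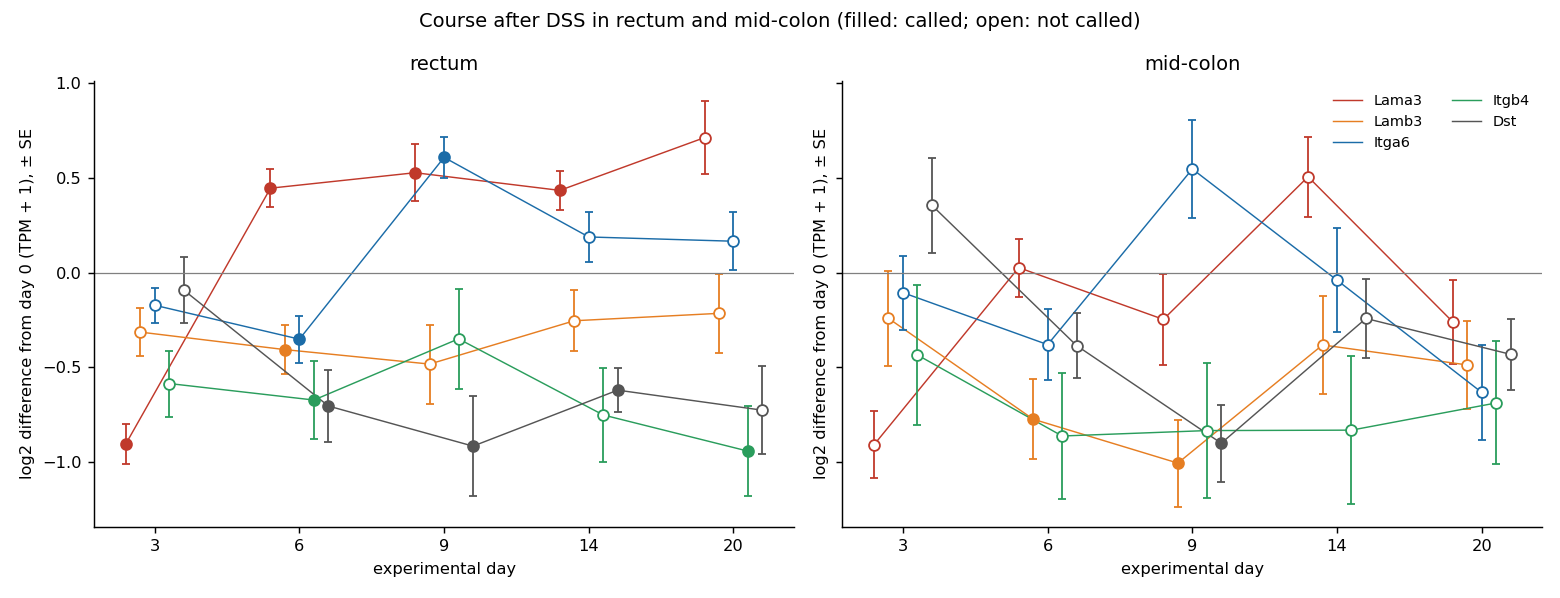
Log2 difference from day 0 (log2 of TPM + 1, ± SE) of 5 members in rectum and mid-colon, with filled points for called differences. In rectum Lama3 went from -0.90 at day 3 to 0.45 at day 6.

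In mid-colon Lamb3 and Dst were called lower after DSS and no member was called higher. Lamb3 fell from 85.1, 95.5, 95.3 and 53.7 TPM at day 0 to 53.95, 44.3 and 42.2 TPM at day 6 (-0.77 ± 0.21, limma adjusted p = 0.0384) and 31.3, 43.8 and 44.95 TPM at day 9 (-1.01 ± 0.23, adjusted p = 0.00539). The low value of day 0, 53.7 TPM, was that of mouse 4 and overlapped day 6. Leaving out any other mouse ended the day 6 call (adjusted p = 0.0551 to 0.146), and the day 9 values lay below every uninjured one. Dst fell to 10.8, 16.8 and 14.3 TPM at day 9 from 21.1 to 31.1 TPM at day 0 (-0.90 ± 0.20, adjusted p = 0.00499).

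The mid-colonic counts (limma) were 0 of 6 at day 3 (0.375% of all genes were called), 1 lower at day 6 (9.99% of all genes lower), 2 lower at day 9 (17.0% of all genes lower), 0 at day 14 (4.36%) and 0 at day 20 (1.56%). At an unadjusted p under 0.05 they were 1, 3, 3, 1 and 3, beside 10.9%, 35.5%, 51.0%, 20.7% and 20.7% of all genes. TMM factors turned the calls over all genes from 590 higher and 1195 lower to 1030 and 937 at day 6, and from 3264 and 2089 to 3151 and 3193 at day 9. Lama3 at day 3 was at 15.2, 19.0 and 21.1 TPM, below the day 0 range of 28.9 to 42.5 TPM, as in rectum, and its difference of -0.91 ± 0.18 had an adjusted p of 0.0792 (0.00584 with TMM factors). Without mouse 4, whose uninjured mid-colon was low in Itgb4, Itga3 and Lamb3, the counts were 1, 5, 4, 1 and 3 at days 3, 6, 9, 14 and 20, all lower, where 0.461%, 37.6%, 23.4%, 7.26% and 8.27% of all genes were called lower in the same fits. The 5 at day 6 were Itgb4 (-1.20), Lamb3 (-0.96), Itga3 (-0.68), Itga6 (-0.51) and Dst (-0.49). At day 9 Itgb4 (-1.17) and Itga3 (-0.72) joined Lamb3 (-1.20) and Dst (-1.01). Mouse 4 was singled out for its low values of members, so its omission raises their day 0 means. The calls gained in this way are therefore no independent support for a fall. Col17a1 did not exceed 0.375 TPM in any mid-colonic sample.

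The changes of rectum and mid-colon were set against each other as an interaction. At day 6 no member and no gene of the table was called (0.0%, limma with Benjamini-Hochberg adjustment; 730 genes, or 5.62%, had an unadjusted p under 0.05). At day 9 no member of 6 was called while 6.55% of all genes were, and on each day 1 member, Lama3, had an unadjusted p under 0.05 (18.3% of all genes at day 9). The largest of the member differences at day 9 was that of Lama3, 0.77 ± 0.30 higher in rectum (adjusted p = 0.170). Without mouse 12 it passed (adjusted p = 0.0364), and without mouse 4 no member was called on either day (Lama3 at day 9, 0.83).

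In anus no member of 7 was called by limma on any day, with 0, 0, 2, 3 and 1 of them at an unadjusted p under 0.05 at days 3, 6, 9, 14 and 20, beside 4.51%, 28.7%, 19.3%, 16.1% and 19.2% of all genes. Of all genes, limma called 0.044% at day 3 and 15.0% at day 6 there. The shares for the later days were 5.09% (day 9), 4.27% (day 14) and 1.46% (day 20). Col17a1 averaged 48.1 TPM at day 0 and 61.6, 63.1, 58.7, 48.4 and 46.3 TPM on these days, with no value under 24.0 TPM in the 19 samples. Lamb3 averaged 33.9 TPM at day 0, 43.6 at day 3 and 14.4 at day 9, and Itgb4 19.9, 24.8 and 9.68 TPM. The anal sample of mouse 4 at day 0, with 60.6 TPM of Lamb3 and 36.15 of Itgb4, was the highest of the uninjured group in both. Anal Krt8 went from 979.7 TPM at day 0 to 7.12 at day 9, and its part in these levels was not tested.

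Squamous neo-epithelium was compared with the rectum of the same 9 mice, with day as a covariate. Col17a1 and Dst were higher in neo-epithelium, Itga3 was lower, and the other 4 members were not called. Col17a1 had its lowest, median and highest levels at 29.2, 39.9 and 61.85 TPM in neo-epithelium and at 0.0285, 0.757 and 7.30 TPM in rectum. The ranges did not overlap, and the log2 difference was 4.17 ± 0.34 (limma adjusted p = 4.29e-08). Over all genes 20.9% were called higher and 22.0% lower. On each day alone, with 3 mice, Col17a1 was called too, with differences of 4.18, 4.10 and 4.25 at days 9, 14 and 20.

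Dst ranged from 25.65 to 56.5 TPM in neo-epithelium and from 9.75 to 31.0 TPM in rectum, a difference of 1.00 ± 0.19 (limma adjusted p = 3.72e-04). The overlap came from 1 rectal sample, of mouse 19 at day 20, and at day 20 alone Dst was not called (adjusted p = 0.222). Itga3 was lower by -0.74 ± 0.16 (17.0 ± 4.67 against 29.3 ± 9.42 TPM, adjusted p = 0.00156), but by day it was called at day 9 alone. Itga6 was at 154.6 ± 28.6 TPM against 142.6 ± 30.55 and its difference, 0.12 ± 0.13, was -0.27 at day 9 alone. Itgb4 differed by -0.47 ± 0.21 without a call (adjusted p = 0.0759), which the mouse as a replicate block turned into one (adjusted p = 0.0371, 4 members called), as did TMM factors (0.0377), coding transcripts alone (0.0351) and leaving out mouse 14 or 19 (0.0496 and 0.0308). Lama3 and Lamb3 differed by -0.23 ± 0.17 and -0.34 ± 0.21, with 64.4 and 67.5 TPM in neo-epithelium.

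Against anus of the same mice, all 5 integrin and laminin chains among the members were higher in neo-epithelium, whereas Col17a1 and Dst were not called. Of all genes 40.1% were called higher (5311 higher and 2610 lower, or 4201 and 3412 with TMM factors). Itgb4 had its lowest, median and highest levels at 17.2, 25.9 and 43.5 TPM in neo-epithelium and at 6.15, 10.45 and 14.96 TPM in anus, a log2 difference of 1.37 ± 0.20 (limma adjusted p = 2.09e-05). Lama3 was at 42.2, 54.9 and 111 TPM in neo-epithelium against 7.29, 12.8 and 24.7 TPM in anus (2.12 ± 0.22, adjusted p = 4.19e-07). Neither gene overlapped between the sections. Itga3 (1.52 ± 0.17, adjusted p = 1.36e-06) and Lamb3 (1.91 ± 0.24, adjusted p = 4.95e-06) did not overlap either. How many of all genes lacked overlap was not counted, so this only describes the single genes. Itga6 was higher by 1.06 ± 0.15 (154.6 against 75.6 TPM, adjusted p = 1.91e-05) and overlapped through 1 anal sample of 129.7 TPM, of mouse 14.

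The differences from anus were also fitted on single days. At day 9 the differences from anus were 1.01 for Itga6, 1.41 for Itgb4, 1.49 for Itga3, 2.36 for Lama3 and 1.94 for Lamb3. At day 14 they were 1.32, 1.64, 1.73, 2.07 and 2.00, and on both days each was called in the fit of that day alone. At day 20 they were 0.84, 1.04, 1.35, 1.92 and 1.78, and Itgb4 was not called (adjusted p = 0.0781). Krt8 averaged 226.6 TPM in neo-epithelium at day 9 and 1667 at day 20, and was between 307.6 and 2473 TPM at day 14. In anus it was 5.68 to 8.56 TPM at day 9, 11.1 to 71.5 at day 14 and 83.75 to 394.3 at day 20. The part of glandular RNA in these differences was not tested. Col17a1 was at 43.2 ± 11.6 TPM in neo-epithelium and 51.1 ± 12.5 in anus, a difference of -0.24 ± 0.17 (limma adjusted p = 0.215). With TMM factors, at day 9 alone, and without mouse 16 it was called lower (adjusted p = 0.0398, 0.0323 and 0.0433), whereas at day 14 alone it was 0.09. Dst differed by -0.17 ± 0.19 (adjusted p = 0.452) and was called lower without mouse 16 (adjusted p = 0.0342).

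**Figure D5:**
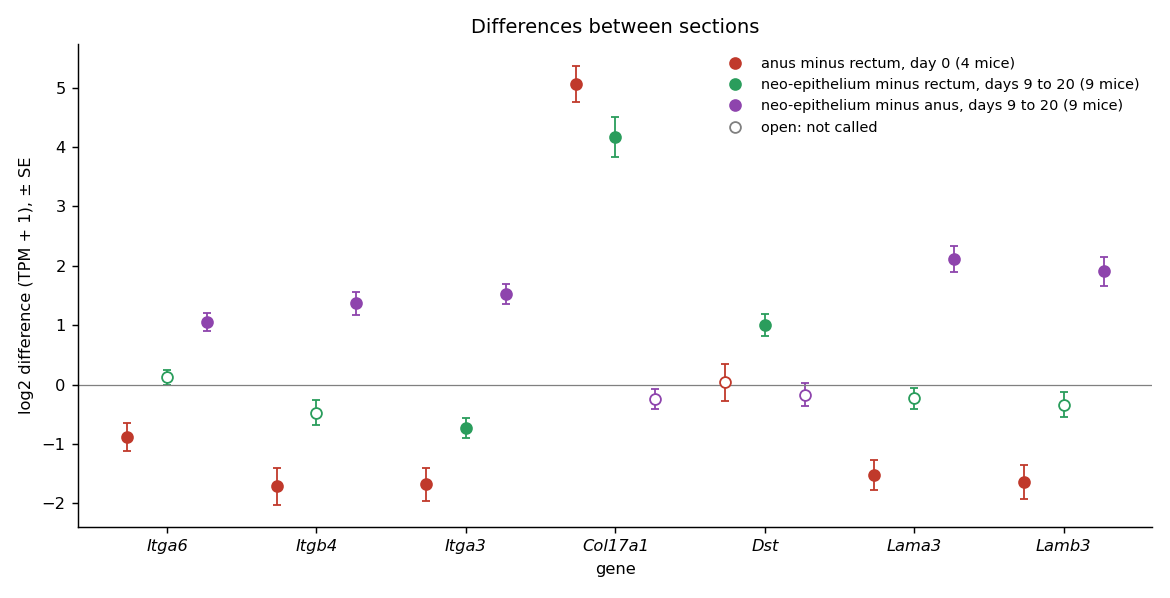
Log2 difference (log2 of TPM + 1, ± SE) of each member in 3 comparisons of sections, with filled points for called differences. Col17a1 was 5.06 higher in anus and 4.17 higher in neo-epithelium than in rectum, while the integrin and laminin chains other than Itga6 lay between 1.37 and 2.12 above anus in neo-epithelium.

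Within the neo-epithelium no member was called by limma between day 9 and day 20 (0 of 7 at an unadjusted p under 0.05), where 26.2% of all genes were (40.8% at an unadjusted p under 0.05). Levels at day 9 and day 20 averaged 142 and 133 TPM for Itga6, 26.7 and 27.45 for Itgb4, and 54.4 and 73.2 for Lama3. Mouse 19 at day 20 had the highest Lama3, Lamb3 and Itgb4 of the section, at 111, 142 and 43.5 TPM. Other basement membrane genes did fall over the same days, as given below.

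The balance between pairs of members was compared within each mouse as a log2 ratio of TPM + 1, with 4 exact permutation tests (two-sided, flipping the sign of the 9 within-mouse differences). For Col17a1 over Itgb4, the ratio was 0.61 ± 0.50 (SD) in neo-epithelium, -4.04 ± 1.00 in rectum and 2.22 ± 0.39 in anus. It was above the rectum of the same mouse in 9 of 9 mice (difference 4.64 ± 0.79) and above its anus in 0 of 9 (difference -1.61 ± 0.50), each with an exact permutation p of 0.00391, the smallest that the 512 sign patterns allow, and 0.00521 after Benjamini-Hochberg adjustment. For Itga3 over Itga6 the ratio was -3.13 ± 0.43 in neo-epithelium, -2.27 ± 0.26 in rectum and -3.60 ± 0.33 in anus. It was below rectum in all 9 mice (difference -0.86 ± 0.51, adjusted exact p = 0.00521) and above anus in 8 of 9 (difference 0.47 ± 0.42, adjusted exact p = 0.0117). In both ratios, taken over all transcripts of each gene, the mean of the neo-epithelium lay between those of rectum and anus. For Itga6 most of that total is not coding. Summed over coding transcripts alone, Itga3 and Itga6 averaged 16.7 and 59.3 TPM in neo-epithelium. In anus of the same mice they averaged 5.28 and 20.0 TPM. The ratio of coding transcripts was not tested, so the Itga3 over Itga6 difference from anus was shown for gene totals only. The ratios combine levels of single members already compared in the same mice, so their tests add no separate support.

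Companion genes were read as 4 lists: 5 hemidesmosome-linked genes, 8 laminin chains outside the members, 14 further basement membrane genes and 10 other matrix-binding integrin chains. Between uninjured anus and rectum the hemidesmosome-linked genes divided. The basal keratins Krt5 (945 TPM in anus against 5.59 in rectum, 7.42 ± 0.56 in log2) and Krt14 (2211 against 16.6 TPM, 7.06 ± 0.39) were higher in anus, and the other 3, Plec, Cd151 and Fermt1, were lower. These 3 are named after their values were seen. Unlike Lama3 and Lamb3, 5 of the 6 laminin chains of the list that were tested were higher in anus and none was lower (25.9% and 34.4% of all genes), led by Lama5 (28.1 against 5.53 TPM, 2.12 ± 0.34), the α chain of the common epithelial laminins. Of the basement membrane genes 5 of 9 tested were higher and none lower, with list medians of 0.79 for basement membrane and 0.86 for laminin chains beside -0.15 over all genes and -1.52 over the members. Of the integrin chains tested 1 of 8 was higher and 2 were lower. Fibroblast markers summed to 1892 TPM in uninjured anus and 537.8 in rectum, and their part in these counts was not tested.

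At day 9 in rectum most integrin and laminin chains of the lists were higher. Of 10 integrin chains tested 8 were higher and 1 lower (33.5% and 20.0% of all genes; list median 1.02), and Itga5, the fibronectin-binding α chain, went from 3.44 to 17.5 TPM (2.04 ± 0.17, limma adjusted p = 2.28e-05). Of 6 laminin chains 4 were higher and 1 lower (median 1.14 beside 0.13 over all genes and -0.14 over the members), and 1 of 7 basement membrane genes was higher. From day 0 to day 9 the summed markers went from 537.8 to 1052 TPM for fibroblasts, from 16.5 to 100 TPM for endothelium and from 151.7 to 6645 for leukocytes, and their part in these counts was not tested. Krt5 and Krt14 were higher by 2.71 ± 0.86 and 2.63 ± 0.67, of which Krt5 lost its call without mouse 2, 4 or 11 (adjusted p = 0.0522 to 0.0697). At day 6 Lama4 (1.26) and Itgav (1.13) had led, with Col4a5 lower (-0.87). With coding transcripts alone Lama4 differed by 0.42 at day 6 and was not called (limma adjusted p = 0.0891). At day 3 the epithelial integrin chain Itgb6 fell from 18.9 to 8.75 TPM (-1.03), while Fermt1, an integrin activator, rose by 0.62. Fermt1 was not called in 1 fit over all samples (limma adjusted p = 0.319). In the interaction at day 9, Itga5, Lama4 and Itgav rose more in rectum than in mid-colon, by 1.60, 1.47 and 1.29. Of these, Itgav lost its call without mouse 1, 2, 3, 4 or 13 (0.0540 to 0.250) and Lama4 without mouse 1 or 2 (0.0663 and 0.0712). Itgav also lost it with a pseudocount of 0.1 (limma adjusted p = 0.0704), with no filter (0.0820) and in 1 fit over all samples (0.0536). With coding transcripts alone the Lama4 difference was 0.38 and was not called (limma adjusted p = 0.614).

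Other companions were called elsewhere in the course. Mid-colon had Itga2 higher (1.21) and Itga7 and Lamb2 lower (-1.04 and -0.84) at day 9. In rectum Itga2, a collagen-binding α chain, was still higher at day 14 (1.08) and day 20 (1.27). Anus, where no member was called, had Krt14 (2.08), Col4a1 (1.79) and Itga5 (1.43) higher at day 6 and Itga2 (1.64) at day 20. Single mice decided several of these calls: Lamb2 ended without mouse 1, 2, 3, 12 or 13 (adjusted p = 0.0670 to 0.151), rectal Itga2 at day 14 without mouse 1, 2, 3 or 16 (0.0537 to 0.0769) and at day 20 without any mouse but mouse 19 (0.0650 to 0.117). Anal Itga2 ended without mouse 2, 3, 18 or 19 (0.0662 to 0.127) and anal Col4a1 without mouse 8 (0.0557).

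Neo-epithelium carried the anchoring fibril collagen Col7a1 at 5.07 TPM against 0.704 in rectum (1.80 ± 0.16, limma adjusted p = 1.10e-07), next to Krt5 (2290 TPM against 59.2 in rectum, 6.57) and Krt14 (6.35). Of the 5 hemidesmosome-linked genes 2 were higher than in rectum, 2 were lower and 1 was not called. Of 9 integrin chains tested there 2 were higher and 2 lower. Of 6 laminin chains 2 were higher and of 8 basement membrane genes 2, with 0 lower in either list. Over all genes 20.9% were higher and 22.0% lower. Against anus all 5 hemidesmosome-linked genes were higher in neo-epithelium, as were 4 of 9 integrin chains (40.1% of all genes), led by Itga2 (1.32 ± 0.16), Itgb6 (1.26 ± 0.14) and Itgb1 (1.09 ± 0.14), the partner of α3. Laminin chains and basement membrane genes went both ways against anus (1 higher and 2 lower of 6, 2 higher and 3 lower of 8, and 19.7% lower over all genes). From day 9 to day 20 of the neo-epithelium 4 of 6 laminin chains and 5 of 8 basement membrane genes fell (16.1% of all genes), among them Col4a1 (45.4 to 12.1 TPM, -1.86 ± 0.23) and Col4a2 (-1.54 ± 0.26, not called without mouse 13, adjusted p = 0.0516), and Itga5 fell by 2.41. Fibroblast markers summed to 2470 TPM at day 9 and 721.3 at day 20 and leukocyte markers to 7760 and 1141 TPM, and their part in these falls was not tested.

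Across the 21 group means of log2(TPM + 1) the 7 members fell into a pair of patterns. These patterns are given as a description because sections of the same day share mice. Itgb4, Itga3 and Lamb3 ran closest together (Pearson r of 0.95 for Itgb4 with Itga3, 0.95 for Itgb4 with Lamb3 and 0.91 for Itga3 with Lamb3). Col17a1 and Dst ran together (0.77) and against Itgb4, Itga3, Lama3 and Lamb3 (r from -0.74 to -0.37), while with Itga6 their r was 0.0699 and -0.0764. Each member's r with the mean of the other 6 was 0.68 for Lama3, 0.67 for Itga6, 0.66 for Lamb3, 0.65 for Itgb4 and 0.54 for Itga3, but -0.40 for Col17a1 and -0.33 for Dst. Among 11833 genes the profile most like the mean of the members was that of Rnf19a (r = 0.88), followed by Vcl (0.87), Erc1 (0.87), Pdcd6ip (0.87), 1700047I17Rik2 and Arf6 (0.86 each).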

How the data were processed

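Per the submitters' processing notes, the authors processed reads with CASAVA and kallisto against mm10; versions and the transcript index are not given in the sources used here. The deposited signal was TPM per Ensembl transcript, 1 column per sample. After 1318 repeated entries were dropped, 88198 transcripts remained and each column summed to TPM scale (999999.8 to 1000000.2). No counts were given, so depth is unknown; 11268 to 13789 genes reached 1 TPM per sample.

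TPM was summed per gene and fitted as log2(TPM + 1) with limma 3.58.1 (R 4.3.3, prior following mean expression), for genes that reached 1 TPM in a number of samples equal to the size of the smaller group. A call is a Benjamini-Hochberg adjusted p under 0.05 over all genes tested. Overlap of ranges was read for single genes and was not counted over all genes. The fit was tested on simulated data. Fold changes of low genes are understated by the pseudocount of 1. Each later day was compared with day 0 of its section, so days share controls. The transcript names and coordinates come from GENCODE M21 (98.98% of transcript identifiers found). Calculations used Python 3.11.15, numpy 2.4.6, pandas 2.3.3, scipy 1.17.1 and matplotlib 3.10.9.

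Sections come from the same animals, per the mouse numbers in the labels. Deviations of sections of a mouse from their group means correlated at 0.05 (anus and rectum, day 0), 0.13 (rectum and mid-colon), 0.26 (neo-epithelium and rectum) and 0.16 (neo-epithelium and anus), as mean Pearson r across genes. Members, lists and tests were chosen with earlier results of these data known. Named were the members and, per comparison, at most 3 called companions with the largest log2 difference. Between anus and rectum 3 more were named after their values were seen. Of the 10 genes of most like profile the first in rank were named. One gene of the lists is not reported here. Alternatives were TMM factors, a pseudocount of 0.1, no filter or 5 TPM, 1 fit over all samples, leaving out each mouse and the mouse as a replicate block. Coding transcripts alone and single days were added after seeing the data.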

Additional observations from a re-analysis of the deposited data

Results flagged for a closer look

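Of 21 tests of a group for 1 sample far from the rest, 2 found one, and chance alone gives about 1 in 20. Both concern mid-colon of mouse 4 at day 0. Itgb4 was at 20.38 TPM there, against 52.8, 54.6 and 54.3 TPM in mice 1 to 3. Itga3 was at 12.9 TPM, against 33.3, 35.3 and 35.2 TPM. The same sample had the lowest Lamb3 (53.7 TPM), Dst (21.1 TPM) and Lama3 (28.9 TPM) of its group.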

How the results depend on the processing

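These tallies cover the called differences of members and named companions, the members in comparisons of sections and a few uncalled values given in the text. None of the 67 called differences (29 of them of members) changed sign under any setting tried. Of 596 values under settings other than leaving out a mouse, 536 kept direction and side of the threshold, 48 lost a call, 9 gained one and 3 uncalled ones changed sign: Itga6 between neo-epithelium and rectum at day 9 alone (-0.27), and Col17a1 (0.0884) and Dst (0.16) between neo-epithelium and anus at day 14 alone. Leaving out a mouse kept 470 of 568 values; Dst between uninjured anus and rectum then ranged from -0.16 (-0.04 and -0.13 without other mice) to 0.46.

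The number of members called moved by more than 1.5 times, or to or from 0, as follows. TMM factors gave 1 at mid-colon day 3 (0 before), 1 at rectum day 6 (5), 2 at rectum day 20 (1) and 1 at anus day 9 (0). No filter gave 0 at mid-colon day 6 (1), 3 at rectum day 6 and 0 at rectum day 20, where a pseudocount of 0.1 gave 0 and a filter of 5 TPM or coding transcripts alone gave 2. One fit over all samples gave 0 at mid-colon day 6 and at rectum days 3 (1), 6, 14 (2) and 20, and 1 at mid-colon day 20 (0), 1 at anus day 9 and 2 at anus day 14 (0). Neo-epithelium against rectum at day 20 alone gave 1 (3). Smaller moves with TMM factors were gains of Itgb4 at mid-colon day 9, rectum day 14 and between neo-epithelium and rectum, of Lamb3 at rectum day 9 and of Col17a1 between neo-epithelium and anus (also at day 9 alone). Itgb4 was also gained at mid-colon day 9 in 1 fit and with coding transcripts, and with the latter between neo-epithelium and rectum. Lost were Itga6 at rectum day 6 with coding transcripts (adjusted p = 0.118), Lama3 at rectum day 9 in 1 fit (0.132), Itga3 between neo-epithelium and rectum at day 14 alone (0.217) and Itgb4 between neo-epithelium and anus at day 20 alone (0.0781).

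Leaving out each mouse gave 0 to 1 at mid-colon day 3, 0 to 5 at day 6, 2 to 4 at day 9, 0 to 1 at day 14 and 0 to 3 at day 20. In rectum it gave 1 to 2 at day 3, 2 to 4 at day 6, 0 to 3 at day 14 and 0 to 3 at day 20, and 0 to 1 in the interaction at day 9. The cause of these changes was not tested. With the mouse as a replicate block, neo-epithelium against rectum had 4 members called instead of 3 (Itgb4, adjusted p = 0.0371 from 0.0759); it changed no other call. Transcript shares were not recomputed. The unknown depth limits what can be said of Col17a1 in rectum and mid-colon.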
